A study of Mus musculus with 2 samples.

Results

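The genes described here encode vasoactive intestinal peptide (Vip), gastrin-releasing peptide (Grp), neuromedin S (Nms) and neuromedin U (Nmu), with the receptors Vipr1, Vipr2, Adcyap1r1, Grpr, Nmur1 and Nmur2. They were taken by name, all 10 of them, from a table of 24229 genes measured in the suprachiasmatic nucleus (SCN), the hypothalamic clock that times daily rhythms. Both groups were wild type C57BL/6 mice that entered the study at 5 to 6 weeks of age, spent a first 7 days in darkness and were dissected at postnatal day 68, at circadian time 4 h after 5 days of darkness. They differed in the earlier light schedule, 4 weeks of a T-cycle, a repeating light and dark schedule of set length, that was normal for the NT group and short for the ST group. Counted from a first darkness at 5 to 6 weeks of age, the stated steps would end after postnatal day 68. Which step the starting age refers to is not settled here. There were 8 mice in each group and 1 RNA sequencing library per group, and how many mice entered a library is not given in the sources used here.

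With 1 library per group no test of the light schedules was possible. Each ratio of ST to NT given here compares these 2 libraries, and the 95% interval beside it reflects the number of reads alone. Reads carried no molecular identifiers, so even this interval may be too narrow. Levels between genes were compared as RPKM, the authors' reads per unit of gene length and of library depth. The libraries held 19476800 (ST) and 24790727 (NT) counts. A gene was called measured when its mean normalised count, after scaling for library depth, was at least 50, which held for 14343 genes and for 7 of the 10. Markers of the SCN were present in both libraries, among them the homeobox genes Six6 (19.8 RPKM in ST and 20.9 in NT) and Lhx1 (15.9 and 16.4). The tissue also held RNA of other cells, such as the astrocyte gene Gfap (208 and 236 RPKM).

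VIP is made by neurons of the ventral SCN core, which receive input from the retina. It acts on the receptor VPAC2, product of Vipr2, through the G protein Gs and cyclic AMP, and it keeps SCN neurons in step with one another. GRP is released by other core neurons and acts on a receptor coupled to Gq and calcium. Neuromedin S marks a broad set of SCN neurons that includes many VIP cells, and it shares the receptors NMUR1 and NMUR2 with neuromedin U. PAC1, the product of Adcyap1r1, is the main receptor of PACAP, the peptide of the retinal fibres that carry light signals to the SCN, and it also binds VIP weakly.

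Transcription of Vip is known to respond to cyclic AMP through CREB, a factor that binds the letters TGACGTCA or the shorter core TGACG. The 250 bases before the RefSeq start site are therefore shown for Vip, for Nms, the peptide whose difference was nearest to that of Vip, and for Grpr, which holds the same 7 letters as Vip. Capitals mark TGACGTC and TATAAA in Vip, CCAAT on either strand in Nms, and TGACGTC in Grpr. The sequences are from RefSeq (GRCm38.p6), and each was found once, by exact match, on its chromosome in NCBIM37 (mm9), the build of the deposited positions.
Vip, chr10:4707324-4707573, minus strand in mm9: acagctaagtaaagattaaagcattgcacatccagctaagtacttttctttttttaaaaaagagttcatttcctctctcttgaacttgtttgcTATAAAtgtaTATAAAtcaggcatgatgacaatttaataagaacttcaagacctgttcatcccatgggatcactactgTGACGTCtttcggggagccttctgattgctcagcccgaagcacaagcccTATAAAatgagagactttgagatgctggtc
Nms, chr1:38995744-38995993, plus strand in mm9: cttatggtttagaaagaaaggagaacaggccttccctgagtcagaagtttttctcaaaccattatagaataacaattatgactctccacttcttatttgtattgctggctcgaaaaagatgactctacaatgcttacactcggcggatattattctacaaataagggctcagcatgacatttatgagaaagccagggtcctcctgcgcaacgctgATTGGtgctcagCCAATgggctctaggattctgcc
Grpr, chrX:159987669-159987918, minus strand in mm9: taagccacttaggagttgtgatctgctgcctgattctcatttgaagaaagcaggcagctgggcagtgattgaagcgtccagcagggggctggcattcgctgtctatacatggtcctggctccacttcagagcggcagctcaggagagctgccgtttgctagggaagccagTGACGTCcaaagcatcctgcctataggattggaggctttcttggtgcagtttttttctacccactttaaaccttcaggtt

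In Vip the run TGACGTC covered positions -79 to -73, counted back from -1, the base before the start, and in Grpr it covered -80 to -74. These positions refer to the RefSeq start: the annotated mm9 start of Grpr lies 60 bases past the last base of its window, against 1 for Vip and Nms. Of 32851 promoter windows of this length in the RefSeq table, 2.78% held TGACGTC on either strand. The full palindrome TGACGTCA was in 1.55% of windows and in no member promoter. The table held a window for 9 of the 10 members, all but Grp. The core TGACG, which lies within both longer runs, was in 17.8% of windows and also in the Nmu and Vipr1 promoters. The Vip window held TATAAA 3 times, the nearest at -30 to -25, and 12.4% of windows held it. Nms held CCAAT at -23 to -19 and its reverse at -35 to -31, letters present in 33.8% of windows. On either strand they were also in Adcyap1r1, Nmur1, Nmur2, Vipr1 and Grpr, where the match at -53 to -49 is not capitalised. The E-box CACGTG, which binds CLOCK and BMAL1, was in 6.02% of windows and, among the members, in Nmu alone, at -57 to -52. The D-box TTANGTAA (2.06% of windows) matched in Nmur1, the receptor half-site AGGTCA (14.0%) in Nmu, and TGACTCA (4.46%) in Nms and Nmu. A match shows only that these letters are present.

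Vip was the most abundant of the 10 genes. Its level was 168 RPKM in ST (counting interval 164 to 173) and 197 in NT (192 to 201), rank 299 and rank 242 among all genes of the table. The ST value was the lower of the pair and the intervals did not overlap. Its counts were 4988 in ST and 7419 in NT, and the ratio of normalised counts was 0.849 (0.818 to 0.880), a log2 ratio of -0.24. In mm9 the gene (ENSMUSG00000019772) spans 4698927 to 4707323 on the minus strand of chromosome 10 and has 7 exons. In bulk tissue, fewer cells of a type and less RNA per cell cannot be told apart.

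Among measured genes, 7.33% had a log2 ratio as low as that of Vip or lower. Ratios spread less among well-counted genes, and of the 5172 genes whose mean normalised count reached 1000 only 1.31% were as low. The middle 90% of those genes lay between -0.14 and 0.12 on the log2 scale. Vip therefore stood in the outer part of the distribution for its depth, although its size of difference was small. The authors' deposited table gives Vip a p-value of 0.068 and an adjusted p of 1.

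Nms differed by about as much. This gene (ENSMUSG00000067604, chromosome 1, 38995994 to 39007123 in mm9) stood at 20.2 RPKM in ST (18.2 to 22.3) and 23.8 in NT (21.9 to 25.8). The NT library was higher, but these 2 single-library intervals overlap slightly. The ratio, whose interval uses both counts together (390 and 585), was 0.841 (0.738 to 0.958), a log2 ratio of -0.25. Of measured genes, 6.65% were as low or lower. The ratio of Vip to Nms was nearly equal in the libraries, 8.36 in ST and 8.29 in NT per length, and its change needs no scaling between libraries: 1.01 times (0.881 to 1.16).

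Grp, the peptide of the other core neurons, stood at 22.5 RPKM in ST (20.3 to 24.9) and 23.7 in NT (21.6 to 25.8). Those intervals overlap widely. Its counts were 376 and 504 and its ratio 0.942 (0.822 to 1.08), so that no difference was detectable at this depth. The ratio of Vip to Grp was 7.50 in ST and 8.32 in NT per length, a change of 0.901 times whose interval held 1 (0.783 to 1.04). The ratio of Vip, 0.849, lies within the interval of Grp.

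Nmu was scarcely detected, with estimated counts of 16.3 in ST and 17.4 in NT, or 1.03 and 0.856 RPKM. Both values are fractional, as when reads are divided between features, and the opposite strand of the gene carries the annotated lincRNA 4930432L08Rik. The ratio was 1.19 with an interval from 0.562 to 2.50, too wide to place. Nms exceeded Nmu by 19.7 times in ST and 27.7 times in NT per length, so that Nms was the main ligand transcript of the neuromedin receptors in both libraries.

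**Figure D1:**
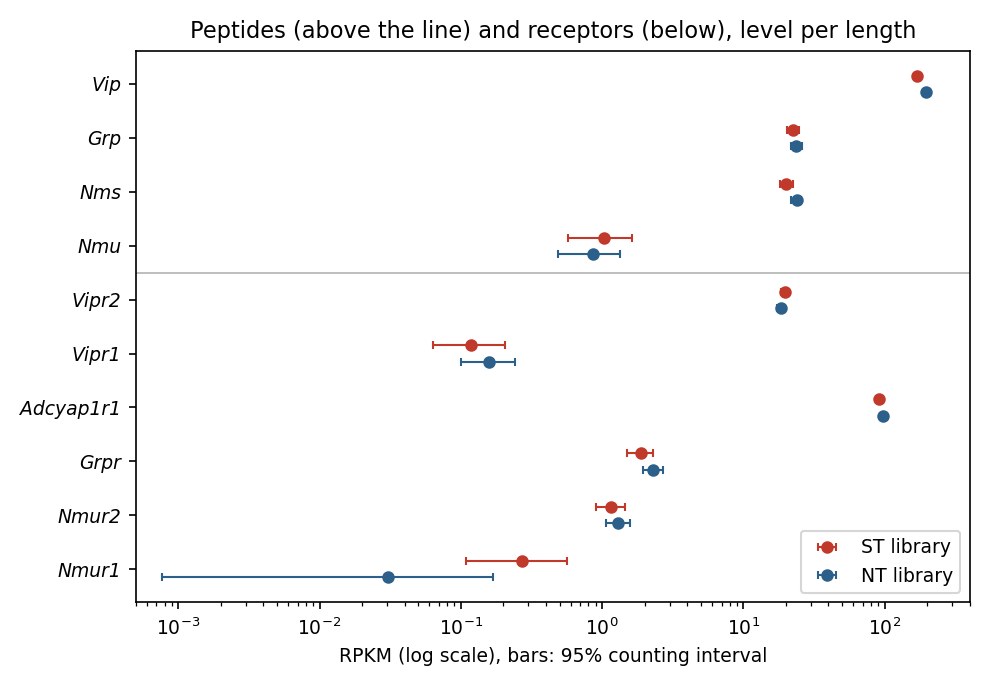
Levels of the 4 peptide genes (above the line) and 6 receptor genes (below) in RPKM on a log axis, 1 point per library (ST red, NT blue), with bars for the 95% counting interval. Vip and Adcyap1r1 lie highest in both libraries, and Vipr1 and Nmur1 lie lowest.

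Vipr2, the receptor through which VIP acts on SCN neurons, did not share the lower value of its ligand. It stood at 19.6 RPKM in ST (18.3 to 20.9) and 18.4 in NT (17.4 to 19.5), with the ST library slightly higher and the intervals overlapping. The counts were 948 and 1135 and the ratio was 1.05 (0.966 to 1.15), a log2 ratio of 0.08. Per length, Vip exceeded Vipr2 by 8.61 times in ST and by 10.7 times in NT. This ligand to receptor ratio was 0.805 times as high in ST as in NT (0.732 to 0.885).

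Vipr1 encodes VPAC1, a VIP receptor of cortex and peripheral tissues. It had estimated counts of 12.9 in ST and 21.6 in NT, fractional like those of Nmu, and levels of 0.119 and 0.157 RPKM. Vipr2 exceeded it by 164 times in ST and 117 times in NT per length. The ratio of Vipr1 was 0.746 with an interval of 0.345 to 1.55, so that neither a decrease nor an increase could be seen.

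Adcyap1r1 was the most abundant receptor and second only to Vip, at 91.2 RPKM in ST (89.5 to 92.9) and 96.6 in NT (95.1 to 98.2). The NT value was higher without overlap. Its 11058 and 14914 counts were the most of any member and gave a ratio of 0.936 (0.913 to 0.959), a log2 ratio of -0.10. Among measured genes, 22.4% were as low or lower, and 11.8% of those that reached 1000, so that this narrow interval marks a small difference that many deep genes share. PAC1 is also made by astrocytes and by neurons outside the SCN. Its ligand gene Adcyap1, which encodes PACAP, was on the other side, at 15.4 RPKM in ST and 13.6 in NT with a ratio of 1.12 (1.001 to 1.25). The ratio of receptor to ligand transcripts, 5.94 in ST and 7.09 in NT per length, was 0.838 times as high in ST (0.749 to 0.937). The Adcyap1 value is RNA of the dissected tissue, not of the retina, so this ratio does not measure the PACAP of retinal fibres.

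The receptors coupled to Gq were much less abundant. Grpr stood at 1.87 RPKM in ST (1.51 to 2.30) and 2.31 in NT (1.94 to 2.71), with the higher value in NT and overlapping intervals. On 92 and 144 counts its ratio was 0.806 (0.614 to 1.05). That point estimate was the lowest of the 7 measured members, with a log2 ratio of -0.31, but the interval held 1 and 4.34% of measured genes were as low or lower. The ratio of Grp to Grpr was 11.99 in ST and 10.3 in NT per length, a change of 1.17 times (0.862 to 1.59).

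Nmur2, the neuromedin receptor of the brain, stood at 1.15 RPKM in ST (0.905 to 1.45) and 1.30 in NT (1.06 to 1.57). Its counts of 74 and 106 gave a ratio of 0.881 (0.646 to 1.20), and the processed transcript Gm12239 is annotated on the opposite strand. Nmur1, a receptor of peripheral tissues and immune cells, had 7 counts in ST and 1 in NT. That is a ratio of 8.83, with an interval of 1.14 to 398. The authors' deposited table gives it a p-value of 0.0286 and an adjusted p of 1, as it does for all 10 genes. With so few reads the gene can be described only as barely detected in both libraries.

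**Figure D2:**
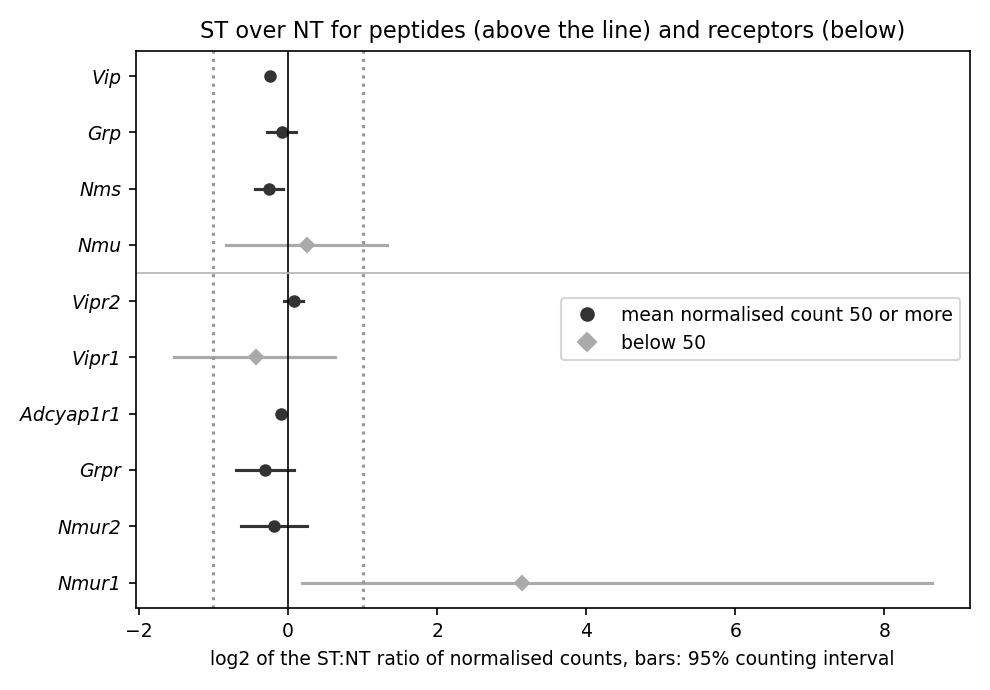
The ST to NT ratio of normalised counts on a log2 scale, without pseudocount, with its 95% counting interval. Black circles are the 7 measured genes, grey diamonds the 3 below a mean normalised count of 50, and dotted lines mark 2-fold. Vip, Nms and Adcyap1r1 have intervals below 0.

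The order of the levels was the same at the top in both libraries, Vip above Adcyap1r1 by 1.85 times in ST and 2.04 times in NT per length. Next came Grp, Nms and Vipr2. In NT, Nms (21.9 to 25.8) and Grp (21.6 to 25.8) overlapped each other and lay above Vipr2 (17.4 to 19.5). In ST the intervals of these 3 genes all overlapped. Below them Grpr lay above Nmur2 in both libraries, and Nmu overlapped Nmur2 in both libraries and Grpr in ST. Nmur1 and Vipr1 came last, with overlapping intervals in NT and in ST.

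Of the 7 measured genes, 6 were lower in ST, with a median log2 ratio of -0.18 against -0.00 over all measured genes, of which 50.9% were lower. With a count filter of 200, which leaves out Grpr and Nmur2 and keeps 5 of the 7, the median was -0.096. None of the 7 reached 2-fold, which 0.251% of measured genes did. The interval lay below 1 for 3 of them, Vip, Nms and Adcyap1r1, and above 1 for 0. For comparison, 10.2% of measured genes had an interval below 1 and 7.79% one above 1. The larger side of that background turned with the scaling, to 8.71% below and 9.91% above by total counts, and was 13.6% below and 5.28% above with pan-neuronal genes set to equality. Among the 5172 deeper genes the shares were 14.1% and 12.7%, and 2 of the 3 members at that depth were below 1. By role, 2 of 3 measured peptides and 1 of 4 measured receptors had an interval below 1. The members were chosen with these results known, so the counts describe them and do not set them apart from other genes.

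**Figure D3:**
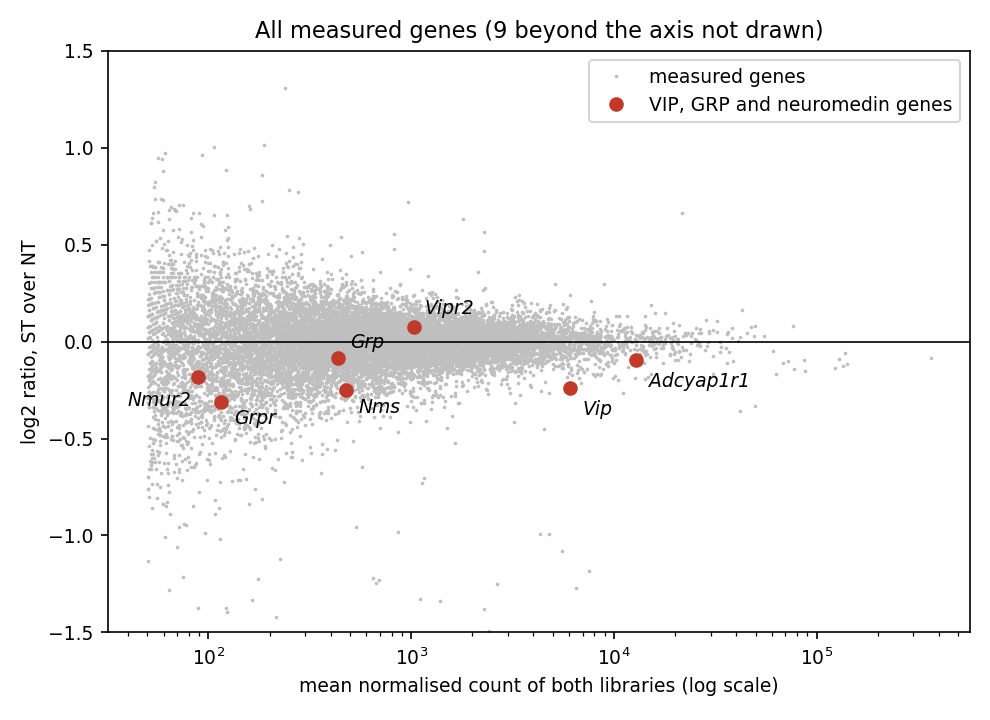
The log2 ratio of ST to NT against the mean normalised count (log axis) for 14343 measured genes in grey, less 9 beyond the axis, with the 7 measured members in red. The cloud narrows with depth, and Vip lies at its lower edge at log2 -0.24.

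The peptides Avp and Sst were higher in ST. Avp, vasopressin, a peptide of the dorsal shell, stood at 656 RPKM in ST and 563 in NT. That is a ratio of 1.16 (1.12 to 1.19) for counts that are not all whole. Oxytocin, Oxt, a gene of adjoining hypothalamic nuclei, was also higher in ST, at 812 RPKM against 655 in NT. The part of those nuclei in the Avp value was not tested, so ratios to Avp cannot be read as core to shell. The ratio of Vip to Avp was 0.257 in ST and 0.350 in NT per length, and 0.734 times as high in ST (0.700 to 0.770). For Vip to Sst, somatostatin of a neighbouring group of neurons, it was 0.719 times (0.683 to 0.756). Nms to Avp gave 0.728 times (0.636 to 0.832). Vip and Nms thus lay on the other side of 1 from Avp and Sst.

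Among 16 genes of SCN neurons that are no members, 10 were higher and 6 lower, with a median log2 ratio of 0.05, 5 intervals above 1 and 2 below. The largest differences were those of Cck, cholecystokinin, at 0.54, Prok2 at -0.29, Cartpt at -0.25 (fold interval 0.708 to 0.993) and Sst at 0.24. The interval of Prok2, an output peptide whose counts are not all whole, held 1. Calb2, calretinin, was at -0.03 and Calb1 at -0.02, both with intervals that held 1. Of 10 measured transcription factors of SCN development, 4 were higher and 6 lower (median -0.03). Zfhx3 was at 0.27, Zfhx4 at 0.15, Rora at -0.15 and Tshz1 at -0.12, and Id4 was the most abundant at 104 RPKM in both libraries. Lhx1, which is needed for normal expression of several SCN peptides including Vip, was at -0.06 (fold interval 0.894 to 1.04).

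The signalling genes downstream of VPAC2 and PAC1 lay close to 0 as a list. Of 30 measured genes of Gs and cyclic AMP, 15 were higher and 15 lower, with a median log2 ratio of 0.00. The interval was above 1 for 5 and below 1 for 2. Crebbp, a coactivator of CREB, was at 0.26 (fold interval 1.10 to 1.29), the cyclic AMP responsive repressor gene Crem at 0.21 (0.997 to 1.34), and the phosphodiesterases Pde4b and Pde4d at -0.15 and 0.12. Prkar1a, a regulatory subunit of protein kinase A, was the most abundant, at 267 RPKM in ST and 268 in NT. The 24 measured genes of Gq and calcium, the route of GRP and neuromedin receptors, had a median of -0.01 with 9 higher and 15 lower, 3 intervals above 1 and 5 below. The ryanodine receptors Ryr1 and Ryr3 were at 0.52 and 0.18, Itpr3 at -0.34 with an interval that held 1, Plcb3 at -0.18 and the abundant Map2k1 at 0.02.

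Genes that respond to CREB and to neuronal activity went the opposite way to Vip. Of 19 measured, 17 were higher in ST, 14 intervals lay above 1 and 0 below it, with a median log2 ratio of 0.21. Fos led at 42.7 RPKM in ST and 27.3 in NT (log2 ratio 0.63), followed by Fosb at 0.55, Junb at 0.54 and Egr1 at 0.47. Rasd1, the most abundant of them by the mean RPKM of both libraries, was at 0.21. Some of these genes also answer to other kinases, and their relation to the VIP receptor was not tested.

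Relatives of the members differed in both directions. Of 9 measured genes of the secretin family, 4 were higher and 5 lower (median -0.03), with 3 intervals above 1 and 3 below. The largest differences were in the receptor activity-modifying proteins, partners of calcitonin family and some VIP receptors, and in Calcrl. Ramp1, the most abundant, was at -0.16, Ramp2 at -0.52 and Calcrl at -0.40, both known from blood vessels, and Ramp3 was at 0.82 (fold interval 1.19 to 2.68). The counts of Ramp2 and Ramp3 are not all whole. Secretin, Sct, had 0 counts in ST and 4 in NT, with a ratio interval of 0 to 1.91 that held 1. Its receptor Sctr had 33 and 44 counts. In the bombesin family, Nmb, neuromedin B, was at 0.01 on counts of 87 and 109, rounded from values that are not all whole. Its receptor Nmbr had 39 and 45 counts. The orphan bombesin receptor Brs3 had 23 counts in ST and 9 in NT, a ratio of 3.23 (1.44 to 7.92) below the count filter.

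Most markers of non-neuronal cells were lower in ST alongside Vip and Nms. All 15 oligodendrocyte genes had an interval below 1, with a median log2 ratio of -0.31 and a summed level of 1147 RPKM in ST and 1394 in NT. Aspa was at -0.56, Opalin at -0.39 and Ugt8a at -0.38. The 13 endothelial and mural genes were all lower (median -0.32, 11 intervals below 1, summed level 150 and 174 RPKM), with Cdh5, Slco1a4 and Pdgfrb from -0.42 to -0.41, Cldn5 at -0.35 and the abundant Slc2a1 at -0.05. So were the 12 microglial genes (median -0.23, 8 intervals below 1, 193 and 224 RPKM), with P2ry12 at -0.51, Aif1 at -0.49, Cx3cr1 at -0.33 and C1qa at -0.27. Meningeal genes were lowest, with a median of -0.96 over 8 measured, led by Fmod at -1.75, Ogn at -1.28, Col1a1 at -1.22 and Igf2 at -0.98. All 10 of that list summed to 15.4 RPKM in ST against 29.9 in NT. Of 12 astrocyte genes, which bear on Adcyap1r1, 9 were lower and 3 higher, with 8 intervals below 1 and 2 above (median -0.08, 1501 and 1531 RPKM). Aqp4 was at -0.32, Gfap at -0.20, Gja1 at -0.17, Slc4a4 at -0.10 and the abundant Glul at 0.07. No marker of these lists was at 0 in both libraries, and the part of these cells in the values of the members was not tested.

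Pan-neuronal genes were not lower as a list. Of 22 pan-neuronal genes, 14 were higher and 8 lower, with a median log2 ratio of 0.02 and a summed level of 2469 RPKM in ST and 2385 in NT. Uchl1, the most abundant, was at 0.13, Camk2b at 0.09, Gap43 at 0.07 and the vesicle calcium sensor Syt1 at -0.11. With that list set to equality, the log2 ratio was -0.26 for Vip, -0.27 for Nms, -0.12 for Adcyap1r1 and 0.06 for Vipr2. Of 9 genes of GABA neurons, the class to which SCN neurons belong, 7 were lower and 4 had an interval below 1. Their median was -0.04, with Dlx5 at -0.29, Gad1 at -0.06, the abundant Gad2 at -0.05 and Dlx2 at 0.09. Of these named genes only Dlx5 differed by more than Vip.

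Other regions that make these peptides could have entered the dissection. Vip is made by cortical interneurons, which also express Htr3a, at 4.27 RPKM in ST and 3.08 in NT. Of 7 measured forebrain genes, 5 were higher and 2 lower (median 0.11), with 3 intervals above 1 and 1 below. Of the 7, 2 were at least 2-fold higher in ST, against 3 of all 14343 measured genes. All 14 genes of the list summed to 22.5 and 18.8 RPKM. Gpr6 was at 1.004, Htr3a at 0.46, Prox1 at -0.41 and the abundant Ppp1r1b at 0.04. Of 10 measured neuropeptide and regulator genes from adjoining hypothalamic nuclei, 6 had a higher value and 4 a lower one (median 0.25, and 954 and 765 RPKM over all 15 present). Their intervals lay above 1 for 5 and below 1 for 1. Qrfp was at 0.59, Trh at 0.56, Gal at 0.48, Nr5a1 at -0.39 and Oxt, the most abundant, at 0.30. Of 8 pituitary genes sought, 3 were present and 2 were measured, and the 3 summed to 9.63 and 40.5 RPKM. Most of that sum was Pomc (7.19 and 37.9 RPKM), a gene not particular to the pituitary, at -2.41. Lhb was at 0.21 with an interval that held 1 (fold interval 0.872 to 1.53), on counts that are not all whole. Whether the libraries differed in pituitary tissue was not tested. Of 7 measured ependymal and tanycyte genes, 3 were higher and 4 lower (median -0.02), with 0 intervals above 1 and 3 below. All 8 of that list summed to 236 and 241 RPKM. Col23a1 was at -0.37, Dynlrb2 at 0.23, Vim at -0.13 and the abundant Rarres2 at -0.12. The part of these regions in the values of the members was not tested.

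**Figure D4:**
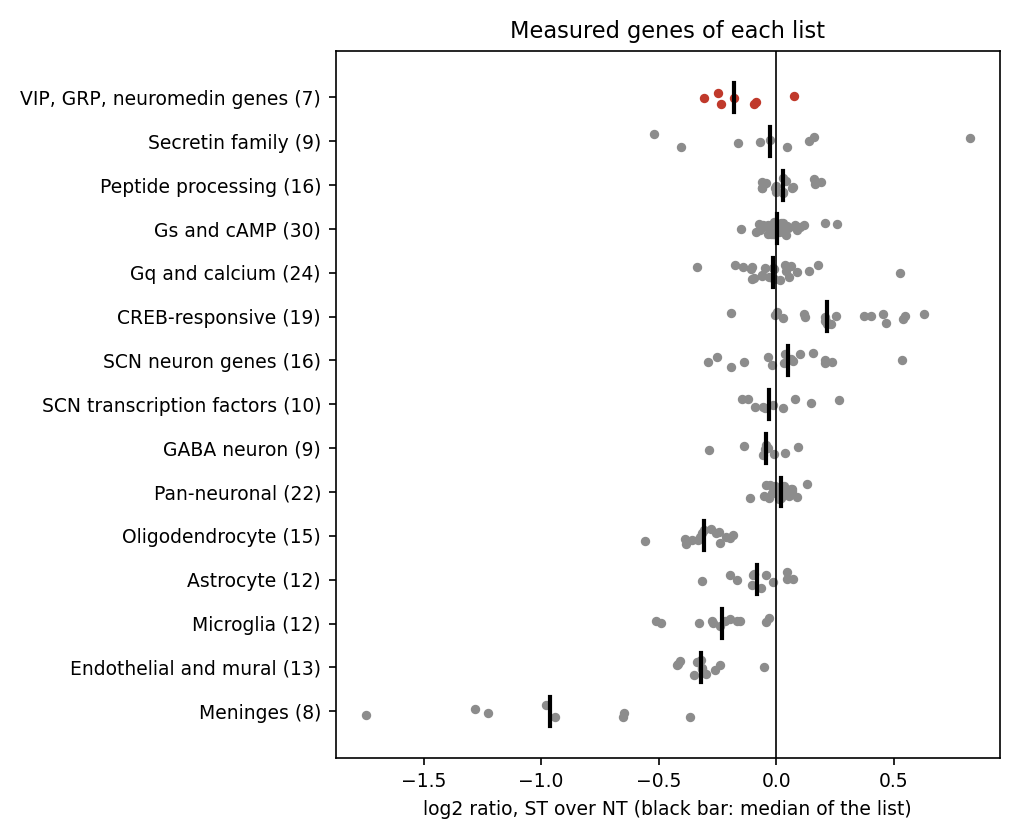
The log2 ratio of ST to NT for each measured gene of the members (red) and of 14 other lists (grey), with the number of genes in brackets and the median as a black bar. The medians run from -0.96 for meningeal genes to 0.21 for CREB-responsive genes, and that of the members is -0.18.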

How the data were processed

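Polyadenylated RNA of the SCN was sequenced, 1 library per group. Per the labels' protocols, RNA was extracted from slices of 250 µm by a kit that separates nuclear from cytoplasmic RNA. The fraction kept, the counter and its use of strand are not given in the sources used. Per the submitters' processing notes, the tools were CASAVA 1.8.2, TopHat 1.2 and DESeq and the build mm9, whose roles are not described. The authors deposited estimated counts, which are not all whole, RPKM and RPM values that sum to 1000000 per library, and a fold change of ST over NT, its log2 and a p-value, per the file headers. The other 3 per-library columns, of mean values, were not used. The authors' deposited RPM values were used only to derive gene lengths.

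Counts were rounded and divided by size factors from the median of ratios, which were 0.890 (ST) and 1.12 (NT). The log2 ratio used a pseudocount of 0.5. Ratios carry a Clopper-Pearson interval, exact for the ST share, single levels an exact Poisson interval, and 19 ratios of gene pairs the conditional interval of the odds ratio, all at 95% (scipy 1.17.1). The code was tested on simulated counts with 200 changed genes. All 10 genes are named, and from each of 20 other lists the 4 measured genes with the largest log2 ratio and the most abundant one. Six6, Lhx1, Calb1, Calb2, Pam, Cpe, Chga and Scg3, outside that rule, were chosen after their values were seen. A few genes that the rule takes are not reported here by name but stay in the counts, sums and medians. Of the secretin and bombesin families, relatives that share a ligand or receptor are named too. The members, lists, pairs and 9 motifs were chosen with earlier results of these data known. Alternatives were other scalings, pseudocount, filters, the authors' RPKM and whole counts only.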

Additional observations from a re-analysis of the deposited data

How the results depend on the processing

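No paired analysis was possible because there was only 1 library for each light schedule, and none could be left out. Alternatives were total-count, TMM (edgeR 4.0.16) and pan-neuronal scaling, a pseudocount of 5, the authors' RPKM and unrounded counts. Under these, all 60 values of the 10 genes stayed within their counting interval. The largest shift of a measured one was 0.020 on the log2 scale. Each scaling shifts all genes alike, by 0.020 at most, and the narrowest interval of a measured member extends 0.036 to its nearer side. The scalings could therefore not have moved a measured member out of its interval. The median of the members was -0.096 over 5 genes with a filter of 200, which leaves out Grpr and Nmur2. Genes higher in ST by 2-fold or more numbered 3, against 1 with pan-neuronal scaling, a pseudocount of 5, a filter of 200 or whole counts only, and 58 with a filter of 10. At least 2-fold lower were 33 genes, against 126 with a filter of 10, 18 with a filter of 200 and 12 with whole counts only. Intervals lay above 1 for 1118 genes and below 1 for 1467, against 615 and 917 with whole counts only, which tests fewer genes (8243 of 14343). They were 1421 and 1250 with total-count scaling, which turns the balance, and 758 and 1955 with pan-neuronal scaling. Depth limits Nmu, Vipr1 and Nmur1, whose ratios cannot be placed.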

Other observations

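The enzymes and granule proteins that turn peptide precursors into active peptides lay close to equal as a list. Of 16 measured genes, 10 were higher and 6 lower, with a median log2 ratio of 0.03, 4 intervals above 1 and 3 below, those of Cpe, Chga and Scg3, which are named after their values were seen. Pcsk1n, an inhibitor of the convertase PC1, was at 0.19, the granin gene Scg2, the most abundant of them at 831 RPKM in ST and 735 in NT, at 0.17, Pcsk5 at 0.16 with an interval that held 1, and Scg5, a chaperone of the convertase PC2, at 0.07. Pam, the enzyme that amidates the ends of VIP, GRP and both neuromedins, stood at 56.4 RPKM in ST and 55.9 in NT, a ratio of 0.9998 (0.961 to 1.04).

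Genes that switch off G protein-coupled receptors lay close to equal. Of 12 measured, 7 were higher and 5 lower, with a median of 0.03, 2 intervals above 1 and 1 below. Grk4, a receptor kinase, was at -0.37 with an interval that held 1, Rgs16, a regulator of G proteins that is rhythmic in the SCN, at 0.16 (fold interval 1.07 to 1.16), Rgs7 at 0.15 and the arrestin gene Arrb2 at -0.13, the last pair with intervals that held 1.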
